A study of Rattus norvegicus with 5 samples.

Results

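The proteasome is the protease that degrades proteins tagged with ubiquitin. Its genes were followed here in the rat small intestine under graded calorie restriction (CR). All probe sets of the array whose 1 annotated gene symbol begins with *Psma*, *Psmb*, *Psmc*, *Psmd* or *Psme* were taken, leaving out the immunoproteasome genes *Psmb8*, *Psmb9* and *Psmb10*. This gave 38 probe sets of 15866, which belong to 35 genes. Another 6 probe sets carry such a name beside other gene names and were left out. So *Psmb6*, the caspase-like subunit, and *Psme3*, an activator subunit, are not among the 35 genes. Of the 4 probe sets that carry the *Psme3* name beside 2 other gene names, 2 were lower at all 4 CR levels. In 1 of them the log2 ratios to the control were −1.43 to −1.03 (limma, unadjusted p = 0.00036, adjusted p = 0.307). The other, with log2 ratios of −1.89 to −0.60, was too weak for the filter on low signals given below. The remaining probe sets with the *Psme3* name were brighter and lay on both sides of the control. Their log2 ratios were −0.17 to 0.09 and −0.10 to 0.04. The annotation does not tell which gene any of the 4 measures.

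All groups were young male Wistar rats (5 weeks old at purchase) in single cages on 1 diet, AIN-93G powder, and differed only in its amount. Over 1 month, the control group was given as much as freely fed rats had been recorded to eat, and the CR groups 5%, 10%, 20% or 30% less than that. The small intestine of 5 rats a group was sampled after 16 h without food. The RNA of a group was pooled and hybridized to 1 Affymetrix rat expression array, so each group is 1 sample and the spread between rats was not measured. A value below is the MAS5 signal, a brightness in arbitrary units scaled to a common mean on each array, and a log2 ratio is that of a CR array to the control array.

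The proteasome is built from a barrel, the core particle, and a cap, the regulatory particle. The barrel stacks outer alpha rings, which gate the entrance, on inner beta rings, in which a few subunits cut the substrate. The base of the cap holds a ring of ATPases that unfold and thread the substrate together with scaffold and ubiquitin-receptor subunits, and the lid carries the subunits around the enzyme that removes ubiquitin. The intestinal epithelium renews itself continuously, and the proteasome works there in protein quality control, in the cell cycle and in the turnover of signalling proteins. Of the 35 genes, 13 code for the core particle (7 of the alpha ring and 6 of the beta ring) and 14 for the regulatory particle (5 ATPases, 3 other base subunits and 6 lid subunits). The remaining 8 are 3 base chaperones, 3 genes of activators, and *Psmc3ip* and *Psme3ip1*, which share the prefix but are not subunits. *Psmc6*, *Psmd12* and *Psmd14* are not among the 35 genes, so the ATPase ring and the lid are covered only in part.

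Proteasome genes are known to be induced together by the transcription factor Nfe2l1, which binds elements containing the letters TGACNNNGC. The promoter windows of RefSeq (build GRCr8, 250 bases before to 50 after each start) held an entry for 33 of the 35 genes. TGACNNNGC on either strand stood in 7 of these 33 windows (21.2%), against 12.1% of all 33469 windows. CCAAT, the core of the box bound by NF-Y, stood in 18 of the 33 (54.5%), against 37.5% of all windows. The matches whose window lies wholly before the start are shown, with 12 bases on each side, 5′ to 3′ on the strand of the gene, and with the matched letters in capitals.
*Psmb2*, chr5:144254978-144255010, plus strand: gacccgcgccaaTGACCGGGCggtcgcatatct
*Psmb5*, chr15:32047419-32047451, minus strand: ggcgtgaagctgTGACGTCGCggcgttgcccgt
*Psmd1*, chr9:94157794-94157826, plus strand: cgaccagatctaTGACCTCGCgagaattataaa
*Psmd9*, first match, chr12:39018368-39018400, minus strand: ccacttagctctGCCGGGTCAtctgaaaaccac
*Psmd9*, second match, chr12:39018321-39018353, minus strand: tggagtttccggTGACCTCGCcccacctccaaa
*Psme4*, chr14:108706576-108706608, plus strand: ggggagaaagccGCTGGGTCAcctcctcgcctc
The first *Psmd9* window and the *Psme4* window carry the letters on the opposite strand, and the *Psmb2* match overlaps a CCAAT. A match is a description of the letters and not a measured binding site. These genes differed in their signals. *Psmd9* and the brightest probe set of *Psme4* were lower than the control at all 4 CR levels. The other *Psme4* probe sets, *Psmb2*, *Psmb5* and *Psmd1* lay on both sides of the control. So did *Psma3* and *Psmd3*, whose matches are not shown because their windows reach past the start, as does that of a second match of *Psmd1*.

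All 38 probe sets passed the filter on low signals, which kept 7933 of the 15866. The 5 arrays had median signals of 44.9 to 49.0. The tissue markers were present: the 7 measured enterocyte markers of 8 listed all passed the filter. Their summed signal was 11461 to 15787 on the CR arrays and 9592 on the control array, with *Fabp1* the largest part. Their median log2 ratio was 0.194, 0.006, 0.670 and 0.091 at 5%, 10%, 20% and 30% CR. *Fabp1*, *Fabp2*, *Apoa4* and *Cdh1* were above the control at every level. *Apob* and *Anpep* were below it at 5%, 10% and 30% CR, and *Krt20* at 5% and 10% CR. The 6 smooth muscle markers summed to 9352 in the control pool, then 7470, 10336, 8668 and 7390 in the 5%, 10%, 20% and 30% CR pools. The 6 exocrine pancreas markers summed to 221 to 268 on the CR arrays and 578 on the control array. Of the 6, 1 passed the filter, *Cela1*, with a signal of 214.5 in the control pool and 149.5 to 245.8 in the CR pools. The others were lower than the control at every CR level, and the median log2 ratio of the list was −4.09 to −1.58. The ratio of the 3′ to the 5′ beta-actin probe set, a measure of RNA length, was 3.18 on the 20% CR array and 2.20 to 2.41 on the others. The same ratio for GAPDH did not set that array apart, at 1.27 on it and 1.21 to 1.40 on the others. How far tissue composition or RNA quality took part in any value below was not tested. In pooled bulk RNA, fewer cells of a type and less RNA per cell cannot be told apart.

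No proteasome gene passed the test of CR against the control. When limma set the CR pools against the control, 0 of 35 genes passed an adjusted p of 0.05, as did 0.0% of the 7933 kept probe sets, and the smallest adjusted p of a proteasome gene was 0.988. At an unadjusted p under 0.05 the count was again 0 of 35 in either direction, where 2.05% of the kept probe sets were lower and 2.71% higher. A linear trend over the restriction level gave 0 of 35 genes by adjusted p, with 0.0% of the kept probe sets. By unadjusted p, 1 gene had a falling slope, *Psmb7*, as had 1.54% of the kept probe sets, and none had a rising one, which 1.55% had. That count was 4 without the 5% CR pool, 3 without the 20% CR pool and 0 without the control or the 30% CR pool. With 1 array a group these tests have 3 residual degrees of freedom for each gene. Their p-values and intervals also draw on the variance prior that limma takes from all kept probe sets. No spread was measured within the control group. The 95% interval of the mean log2 ratio lay within 1 of 0 for 34 of the 35 genes and within 0.5 of 0 for 25.

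The mean log2 ratio over the 4 levels ran from −0.43 (*Psmd9*) to 0.29 (*Psmd5*), with a median of −0.03 over the 35 genes and −0.01 over the kept probe sets. It was below 0 for 25 of the 35 genes (71.4%), and for 50.9% of the kept probe sets. The signal was below the control at all 4 levels for 10 genes, 28.6% of the 35, against 20.6% of the kept probe sets. They were *Psma4*, *Psma7*, *Psmb3*, *Psmb7*, *Psmc2*, *Psmd2*, *Psmd8*, *Psmd9*, *Psme4* (by its brightest probe set) and *Psme3ip1*. Only *Psmb1* and *Psmd5*, 5.71% of the 35, were above the control at all 4 levels, against 19.0% of the kept probe sets. Among the 3967 brighter of the kept probe sets the shares were 20.8% below and 18.4% above. Without the 20% CR pool 17 genes lay below the control at every remaining level and 4 above. Leaving out a level can only raise such counts or leave them unchanged. The share of the kept probe sets over the remaining levels was not computed. No gene was 0.5 or more from the control at all 4 levels, where 0.34% of the kept probe sets were lower and 0.769% higher by that much.

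**Figure D1:**
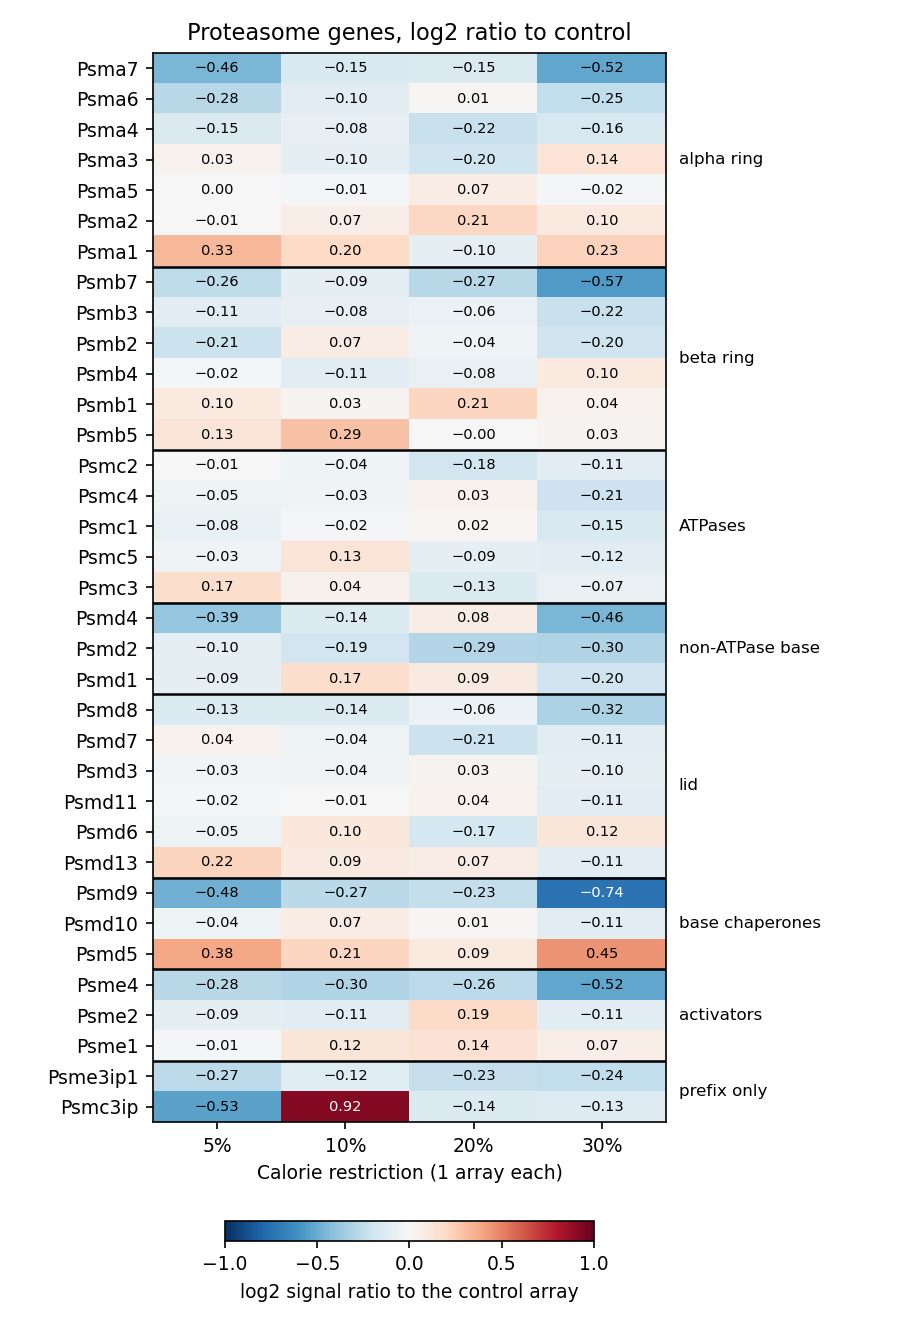
Log2 ratio of the signal at each CR level (columns, 1 array each) to the control array for the 35 genes (rows, grouped by role, 1 probe set a gene); blue is below the control and red above. Most cells lie close to 0, and the darkest blue is *Psmd9* at 30% CR (−0.74). The darkest red is *Psmc3ip* at 10% CR (0.92), a weak probe set that passed the filter only through that array.

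In the alpha ring, which gates the barrel, *Psma7* had the lowest mean ratio and *Psma1* the highest. *Psma7* had a signal of 1927 in the control pool, then 1403, 1732, 1739 and 1341 in the 5%, 10%, 20% and 30% CR pools. All 4 CR arrays lay below the control, the 5% and 30% arrays the furthest, with ratios of −0.46 and −0.52. The mean log2 ratio was −0.32 ± 0.17 (SE, limma, unadjusted p = 0.094, adjusted p = 0.988). *Psma1* had a signal of 548 in the control pool, then 688, 629, 513 and 643 in the 4 CR pools. It was above the control at 5%, 10% and 30% CR and below it at 20% CR, with a mean log2 ratio of 0.17 ± 0.17. *Psma4* was below the control at every level, with ratios between −0.22 and −0.08. *Psma5* was the steadiest of the 35 genes, at 1086 to 1160 on the CR arrays and 1102 on the control array. *Psma2*, *Psma3* and *Psma6* lay on both sides of the control. A brighter probe set, which names *Psma3* beside *Psma3l* and was left out by the rule, had ratios from −0.05 to 0.09. Its highest values were at 20% and 30% CR.

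The beta ring holds the cutting subunits. *Psmb5*, the chymotrypsin-like subunit, had a signal of 1498 in the control pool, then 1637, 1834, 1495 and 1528 in the 5%, 10%, 20% and 30% CR pools. It was highest on the 10% CR array, with a ratio of 0.29, and within 0.03 of the control at 20% and 30% CR. Its mean log2 ratio of 0.11 ± 0.15 (SE) was the highest of this ring with all pools and did not pass the limma test. It was 0.051 without the 10% CR pool. *Psmb7*, the trypsin-like subunit, had a signal of 1277 in the control pool, then 1069, 1203, 1056 and 862 in the 4 CR pools. Every CR array was below the control, and the 30% CR array was the lowest, with ratios of −0.26, −0.09, −0.27 and −0.57. The mean log2 ratio was −0.30 ± 0.18 (limma, unadjusted p = 0.121). Its slope of −0.16 ± 0.05 (SE) per 10% of restriction had the smallest unadjusted trend p of the 35 genes (limma, unadjusted p = 0.0135), with an adjusted p of 0.998, and was −0.10 without the 30% CR pool. *Psmb5* and *Psmb7* therefore lay on opposite sides of the control in their means, a difference that was not tested. The probe set that names *Psmb6*, the remaining cutting subunit, beside *Psmb6l1* was below the control at every level, with ratios of −0.27 to −0.02.

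The structural beta subunits had ratios from −0.22 to 0.21. *Psmb1* was above the control at each level, at 1645 to 1869 against 1614 on the control array. *Psmb3* was below it at each level, at 1106 to 1240 against 1289. *Psmb2* and *Psmb4* lay on both sides, with ratios from −0.21 to 0.10. *Psmb3* has 7 annotated pseudogenes and 3 like genes in RefSeq, and 13 of the 35 genes have at least 1 pseudogene or like gene, whose transcripts a probe set may share.

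The ATPases of the base, the motor of the particle, stayed near the control. Over *Psmc1* to *Psmc5* the mean log2 ratio ran from −0.08 to 0.00. *Psmc2*, the lowest, had a signal of 1057 in the control pool, then 1053, 1027, 933 and 980 in the 5%, 10%, 20% and 30% CR pools. *Psmc3*, the highest, had 524 in the control pool, then 591, 539, 478 and 498 in the 4 CR pools. *Psmc2* was thus below the control throughout, by at most 0.18, while *Psmc3* was above it at the milder levels and below it at 20% and 30% CR. All 5 ATPase genes were below the control at 30% CR, by 0.07 to 0.21.

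Of the other base subunits, *Psmd2* is a scaffold that docks ubiquitin shuttles. Its signal was 420 in the control pool, then 392, 367, 342 and 341 in the 5%, 10%, 20% and 30% CR pools. Among the 35 genes it alone had a lower signal at every step, counted from the control array to 30% CR, and the last pair of levels hardly differed. The slope was −0.10 per 10% of restriction (limma, unadjusted p = 0.0905, adjusted p = 0.998) and the mean log2 ratio −0.22 ± 0.15 (SE). *Psmd4*, a receptor for ubiquitin chains, had a signal of 440 in the control pool, then 337, 401, 464 and 321 in the 4 CR pools. It was well below the control at 5% and 30% CR, with ratios of −0.39 and −0.46, and slightly above it at 20% CR. *Psmd1*, the other large scaffold, had 251 in the control pool, then 236, 283, 266 and 218 in the 4 CR pools, on both sides of the control.

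In the lid, *Psmd8* had the lowest mean ratio, −0.16 ± 0.15 (SE). Its signal was 569 in the control pool, then 519, 518, 547 and 457 in the 5%, 10%, 20% and 30% CR pools, below the control throughout and lowest at 30% CR. *Psmd13* had the highest mean, 0.07 ± 0.17, which was 0.02 without the 5% CR pool and 0.13 without the 30% CR pool, with 219 in the control pool, then 256, 234, 231 and 203 in the 4 CR pools. Its ratio was lower at each further CR level, above 0 up to 20% CR and −0.11 at 30% CR. *Psmd11*, measured by 2 probe sets, was within 0.12 of the control on every array by both. *Psmd3*, *Psmd6* and *Psmd7* had ratios between −0.21 and 0.12. *Psmd7* is the partner of the subunit that removes ubiquitin.

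**Figure D2:**
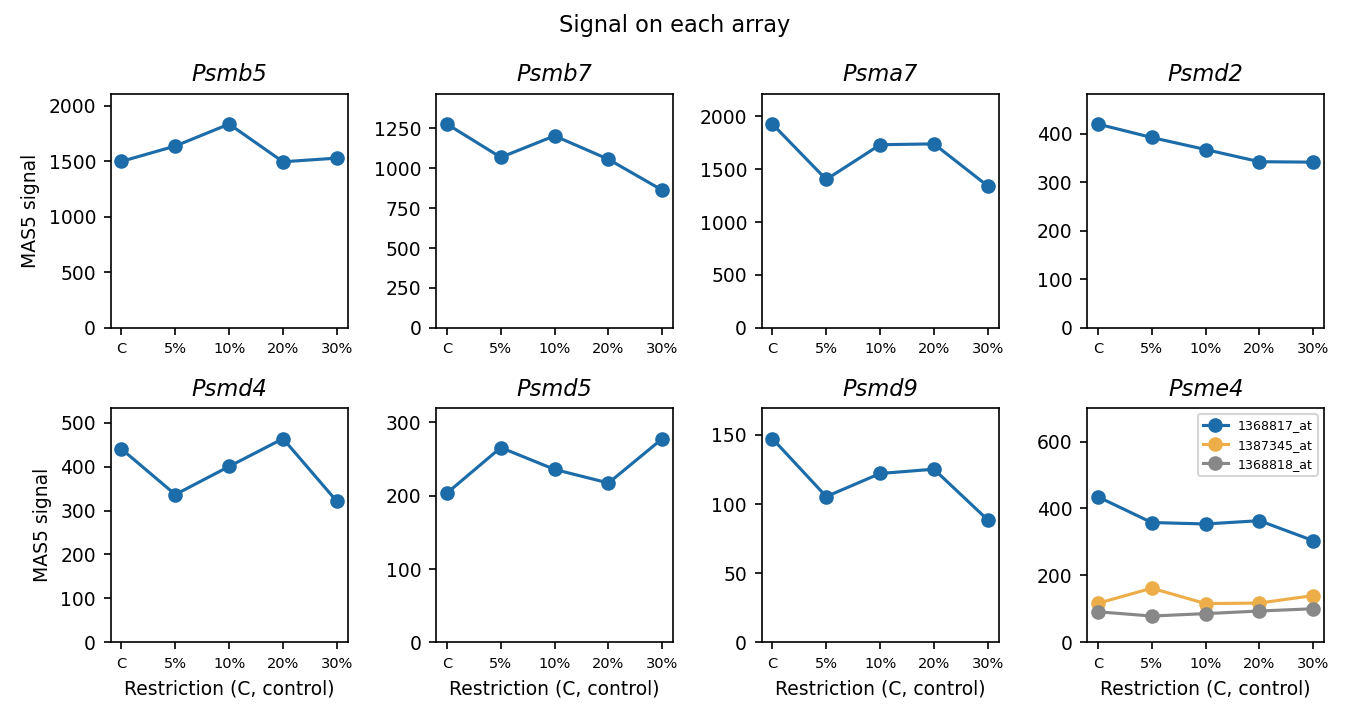
MAS5 signal (vertical axes, arbitrary units, from 0) on the control array (C) and the 4 CR arrays for 8 genes, with 1 point per array and, for *Psme4*, a line for each of 3 probe sets. *Psmb7* and *Psmd2* are lowest at 30% CR, *Psma7*, *Psmd4* and *Psmd9* dip at 5% and 30% CR, and *Psmd5* peaks on the same 2 arrays.

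The lowest and the highest mean of the 35 genes both belonged to chaperones that assemble the base. *Psmd9* had a signal of 147 in the control pool, then 105, 122, 125 and 88.5 in the 5%, 10%, 20% and 30% CR pools. All CR arrays were below the control, and the 30% array the furthest, at −0.74. The mean log2 ratio of −0.43 ± 0.23 (SE, limma, unadjusted p = 0.0894, adjusted p = 0.988) was the lowest of the 35 genes. *Psmd5* went the other way, with 204 in the control pool, then 266, 236, 217 and 278 in the 4 CR pools. All CR arrays were above the control, the 5% and 30% arrays the most, and the mean log2 ratio was 0.29 ± 0.18 (SE, limma, unadjusted p = 0.142, adjusted p = 0.988). *Psmd10*, the third chaperone and known also as the oncoprotein gankyrin, stayed within 0.12 of the control.

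The activators are alternative caps. *Psme4* codes for a large single-chain activator, and its brightest probe set had a signal of 435 in the control pool, then 358, 354, 364 and 304 in the 5%, 10%, 20% and 30% CR pools. All CR arrays were below the control, with a mean log2 ratio of −0.34 ± 0.16 (SE) and the smallest p of the 35 genes in this comparison (limma, unadjusted p = 0.0555, adjusted p = 0.988). Its other probe sets did not share this. The second had 117 in the control pool, then 162, 116, 117 and 140 in the 4 CR pools, and the third had 91.3 in the control pool, then 78.6, 85.8, 93.6 and 100 in the same order. At 30% CR both were above the control, by 0.26 and 0.14, where the brightest was below it by 0.52. *Psme1* and *Psme2*, which form the activator ring that interferon induces, had mean log2 ratios of 0.08 and −0.03.

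*Psmc3ip*, a partner in meiotic recombination, was the weakest of the 38 probe sets, at 46.7 in the control pool, then 32.3, 88.4, 42.4 and 42.7 in the 4 CR pools. It sat at the filter level of 46.5 and reached it in the mean only through the 10% CR array. Its 95% interval was the 1 that reached beyond 1. *Psme3ip1*, a protein that binds an activator subunit, was below the control at every level, by 0.12 to 0.27.

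The proteasome genes varied little from array to array. The SD of the log2 signal over the 5 arrays had a median of 0.12 for the 35 genes, with 0.125 for the core and 0.109 for the regulatory particle, against 0.18 for the kept probe sets. Brighter probe sets vary less on these arrays, and for the 3967 brighter of the kept probe sets the median SD was 0.15. Values of different probe sets cannot be set against each other as levels of expression, since each probe set has its own brightness.

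**Figure D3:**
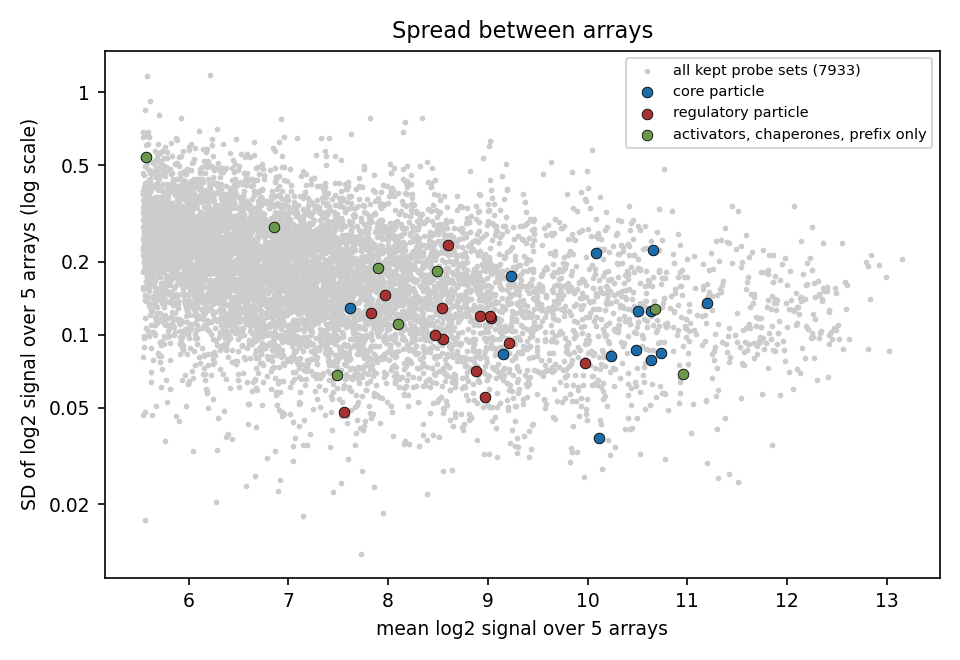
SD of the log2 signal over the 5 arrays (vertical axis, log scale) against the mean log2 signal for all 7933 kept probe sets (grey) and the 35 proteasome genes (coloured by particle). Most proteasome genes lie in the lower part of the grey cloud, and *Psmc3ip*, at the far left, has the highest SD, 0.54.

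Core and regulatory particle did not separate in their medians. The median log2 ratio of the 13 core genes was −0.019, −0.080, −0.056 and −0.021 at 5%, 10%, 20% and 30% CR. That of the 14 regulatory genes was −0.041, −0.025, −0.017 and −0.115 at the same levels, against 0.005, 0.006, −0.030 and 0.001 for the kept probe sets. Core minus regulatory was 0.022, −0.055, −0.038 and 0.094, with a mean of 0.006 ± 0.067 (SD over 4 levels). The difference changed sign between levels, its mean was smaller than its spread, and that mean was 0.026 without the 10% CR pool and −0.024 without the 30% CR pool. At 30% CR the medians of both particles were below 0 under each scaling tried. With quantile normalization the core median there was −0.003, beside −0.007 for the kept probe sets. At 20% CR both turned positive with median centring (core 0.007, regulatory 0.046), as did the median of the kept probe sets (0.033). With quantile normalization the core median at 5% CR (0.012) and the regulatory median at 10% CR (0.003) were positive.

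The 30% CR array stood out within the regulatory particle. There 13 of the 14 regulatory genes were below the control, all but *Psmd6*, as were 7 of the 13 core genes, 26 of all 35 genes and 49.8% of the kept probe sets. The 30% CR array was the lowest of all 5 arrays for 10 of the 14 regulatory genes (71.4%), against 21.1% of the kept probe sets and 23.7% of the brighter ones. Those 10 were *Psmc1*, *Psmc4*, *Psmc5*, *Psmd1*, *Psmd2*, *Psmd3*, *Psmd4*, *Psmd8*, *Psmd11* and *Psmd13*. The regulatory subunits *Adrm1* and *Sem1*, named outside the prefixes and so not counted, were lowest on the 20% CR array. Their log2 ratios at 30% CR were −0.31 and 0.11. The probe set naming *Psmb6* beside *Psmb6l1*, left out of the core count, was lowest on the 30% CR array. Over all 35 genes the 30% CR array was the lowest for 17 (48.6%). The 20% CR array was the lowest for 8 of the 35 (28.8% of the kept probe sets), the 5% array for 6 (14.4%), the 10% array for 2 (16.7%) and the control array for 2 (19.1%). In the core particle the 30% array was the lowest for 4 of 13 (30.8%), namely *Psma5*, *Psma7*, *Psmb3* and *Psmb7*. This count was chosen after the values had been seen, all its genes share the same arrays, and the difference between the particles was not tested. The drops were small, with a regulatory median of −0.115 at 30% CR, and the smooth muscle markers, with a median ratio of −0.285 there, were also lowest in sum on this array, as given above. The part of muscle content in the result was not tested.

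**Figure D4:**
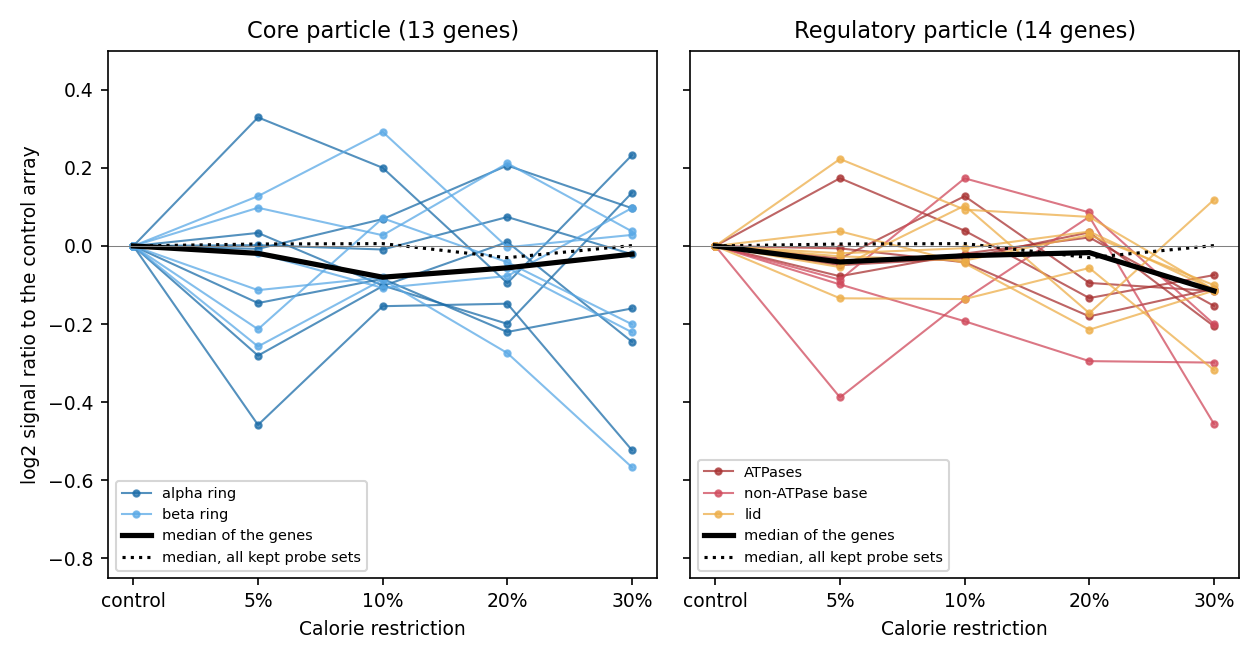
Log2 ratio to the control array (vertical axis) by restriction level for the 13 core genes (left) and the 14 regulatory genes (right), with 1 thin line per gene, the median of the genes in thick black and the median of all kept probe sets dotted. At 30% CR the core genes spread on both sides of 0 while 13 of 14 regulatory genes lie below it, around a median of −0.115.

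By size, 4 genes were lower by at least 0.5 at 30% CR, *Psma7*, *Psmb7*, *Psmd9* and *Psme4*, which is 11.4% of the 35 against 5.61% of the kept probe sets. None was higher by that much, where 7.51% of the kept probe sets were. At 5% CR *Psmc3ip* alone was lower by 0.5 or more, where 3.84% of the kept probe sets were, and none was higher, where 5.62% were. At 10% CR none was lower (3.45% of the kept probe sets) and *Psmc3ip* alone higher (4.73%). *Psmc3ip* passed the filter only through that array, so its value there is no finding about the proteasome genes. At 20% CR none was lower or higher by that much, where 6.15% of the kept probe sets were lower and 3.95% higher.

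A dip at both ends of the restriction range recurred in several roles. The 5% and 30% CR arrays were the lowest 2 of the 4 CR arrays for 13 of the 35 genes (37.1%), against 21.3% of the kept probe sets. *Psma6*, *Psma7*, *Psmb2*, *Psmb3*, *Psmc1*, *Psmc4*, *Psmd1*, *Psmd4*, *Psmd9*, *Psmd10*, *Psmd11*, *Psme1* and *Psme3ip1* had this shape. The same arrays were the highest 2 for *Psma1*, *Psma3* (not in its left-out probe set), *Psmb4* and *Psmd5*, 11.4% of the 35 against 24.2%. This pattern too was noticed in the data. The summed smooth muscle signal was lowest on the same 2 arrays, and its part in the pattern was not tested.

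Of 43 other genes of the ubiquitin and proteasome pathway that were listed, 33 were measured and 31 passed the filter. None passed the limma test by adjusted p, and 1, *Stat3*, did by unadjusted p in the comparison with the control. Of the 31, 11 were below the control at all 4 levels and 4 above it (20.6% and 19.0% of the kept probe sets), and the median of the mean log2 ratios was −0.10. The immunoproteasome genes, whose subunits replace the cutting subunits of the core after interferon, were all below the control at 5%, 10% and 30% CR and on both sides of it at 20% CR, and none passed the limma test. *Psmb8* had a signal of 1457 in the control pool, then 1425, 1367, 1549 and 1282 in the 5%, 10%, 20% and 30% CR pools, and *Psmb9* had ratios between −0.09 and 0.06. *Psmb10* was below the control at every level, with 957 in the control pool, then 759, 846, 913 and 743 in the same order.

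*Stat3*, a transcription factor of cytokine signalling, listed among the transcription factors, had a signal of 475 in the control pool, then 303, 318, 317 and 283 in the 5%, 10%, 20% and 30% CR pools. The CR arrays lay close together and all below the control, with a mean log2 ratio of −0.64 ± 0.15 (SE, limma, unadjusted p = 0.0015, adjusted p = 0.496), and its second probe set was also below the control on all 4. *Vcp*, the ATPase that pulls ubiquitinated proteins out of complexes and membranes, had 1076 in the control pool, then 826, 929, 955 and 792 in the 4 CR pools. It was below the control throughout and lowest at 5% and 30% CR, with a mean log2 ratio of −0.30 ± 0.15. The ligase *Stub1* and the assembly chaperone *Psmg2* followed with means of −0.27 and −0.25. Among those with means above 0 were the shuttle *Ubqln2* (0.31), the activating enzyme *Uba6* (0.25), the ligase *Ube3c* (0.22) and *Nfe2l1* (0.15). The brightest probe set of *Nfe2l1* had a signal of 97.3 in the control pool, then 106, 114, 104 and 109 in the 5%, 10%, 20% and 30% CR pools. Its other probe sets did not share this. Another kept one lay on both sides of the control, with 50.1 in the control pool, then 53.9, 37.0, 51.6 and 61.2 in the same order. The last, below the filter, had a mean log2 ratio of −0.21. *Zfand2a* (−0.38) and *Ube3a* (0.22) had means of like size but lay below the filter. None of those kept passed the limma test after adjustment.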

How the data were processed

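The authors computed an MAS5 signal intensity, on a linear scale, for each probe set and array with the Affymetrix software. In the deposited values the mean without the lowest and highest 2% was 132 on each array, and the sources used here do not give the scaling target. The number of arrays limits the precision. Signals were floored at 0.1 and taken to log2. Of 15866 probe sets, 12783 carry 1 gene name in the platform annotation, 312 several and 2771 are unnamed here, and 57 array control probe sets were set apart. All 35 symbols are current in RefSeq. Probe sets with a mean log2 signal at or above the median (a signal of 46.5) were kept. A gene with several probe sets is represented by that with the highest mean signal.

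With limma 3.58.1 (R 4.3.3), 1 model contrasted the CR pools with the control pool and another took the restriction percent as a linear term. Both used lmFit and eBayes with the variance prior following intensity, and two-sided p-values were adjusted after Benjamini and Hochberg across 7933 probe sets. Differences among the CR levels count as residual spread in the first model, and the control pool is taken to have the same spread. Samples were grouped by their labels, and the fits were tested on simulated data. The members and lists were chosen with earlier results of these data known. Genes given with all values are the cutting subunits *Psmb5* and *Psmb7* and the highest and lowest mean in each role. Also given are the 4 smallest p in each fit and those whose probe sets disagree. In the pathway list they are up to 4 with the largest mean in each direction among those kept. Alternatives were other scalings, an added constant, other filters, a plain variance prior, ranks of the level, averaging the probe sets of a gene and leaving out each pool. The authors' detection and change calls are not analysed here.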

Additional observations from a re-analysis of the deposited data

How the results depend on the processing

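No proteasome gene passed an adjusted p of 0.05 in either limma fit under any alternative run. By unadjusted p, the comparison with the control gave 0 genes, and 1 with quantile normalization, 1 without a filter and 3 without the 20% CR pool. The trend gave 1 gene, and 2 without a filter or by ranks, 4 without the 5% CR pool, 3 without the 20% CR pool, and 0 without the control or the 30% CR pool. The count of genes below the control at every level was 10 with all pools. It was 11 to 17 with 1 CR pool left out, the highest without the 20% CR pool, and 7 with median centring. The count above it at every level was 2, and 4 with median centring and 2 to 4 with 1 CR pool left out, 4 without the 5% or the 20% CR pool. With a CR pool left out these counts have fewer arrays to satisfy and can only stay or rise. The matching share of the kept probe sets was not computed. The cause of the shift with median centring was not tested. Mean log2 ratios near 0 changed sign: that of *Psmd1* (−0.01) was 0.0051 with quantile normalization, that of *Psmc3* (0.00) was −0.0004 with median centring. With 1 CR pool left out, *Psmc3* gave −0.0563 to 0.046, *Psmd1* −0.0669 to 0.0576 and *Psmd11* −0.0455 to 0.0041. Other means that moved by over 1.5 times, with no change of sign, were those of *Psma1* (0.25 without the 20% CR pool, 0.17 with all), *Psmb5* (0.051 without 10% CR, 0.11), *Psmc2* (−0.05 without 20% CR, −0.08), *Psmd13* (0.02 without 5% CR and 0.13 without 30% CR, 0.07), *Psmd4* (−0.15 without 30% CR, −0.23) and *Psme1* (0.05 with quantile normalization, 0.08). Without the 30% CR pool the slope per 10% of restriction was −0.10 for *Psmb7* and −0.05 for *Psmd9*, against −0.16 for both with all pools, and without the control pool it was −0.10 for *Psmd9* and −0.08 for *Psme4* (−0.13 with all). Core minus regulatory ranged from −0.024 (without 30% CR) to 0.026 (without 10% CR), and the regulatory median over the levels was −0.028 without the 30% CR pool and −0.050 with all. The regulatory genes lowest on the 30% CR array numbered 10 to 13 and the core genes 4 to 6 under the alternatives, which were chosen after seeing the data. No paired analysis was possible because each rat and each pool had 1 diet only. The control pool was left out of the trend alone. With 1 array per level, weak probe sets such as *Psmc3ip* and *Psmd9* are the least precise.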
